A study of Mus musculus with 8 samples.

Results

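The nuclear respiratory chain genes were examined in lung endothelial cells (ECs) of neonatal mice. Members were the protein-coding genes outside the mitochondrial genome whose symbols begin with the roots used for subunits of the 5 complexes: Nduf (complex I), Sdh (complex II), Uqcr (complex III), Cox with a subunit number (complex IV) and Atp5 (complex V, the ATP synthase). The symbols alone chose them and no measured value entered the rule, but earlier results of these data were known when it was set. Of the 54532 genes in the count table, 86 met the rule, and 81 of these were among the 15564 genes that passed the filter on low counts. By complex, the members numbered 38, 4, 8, 18 and 18, of which 38, 4, 8, 14 and 17 passed.

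The respiratory chain passes electrons from NADH and succinate to oxygen through complexes I to IV, pumps protons across the inner mitochondrial membrane, and lets the ATP synthase use the proton gradient to make ATP. Most subunits are encoded in the nucleus and imported, while the mitochondrial DNA (mtDNA) encodes a small set of the subunits of complexes I, III, IV and V. Complex II is encoded wholly by nuclear genes. Lung ECs line the alveolar capillaries and rely to a large extent on glycolysis for ATP, and the chain is also a source of reactive oxygen species when oxygen is high.

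Both groups were wild-type (WT) C57BL/6J pups with no transgene. The normoxia group was kept in room air (21% O2) and the hyperoxia group in 80% O2 from birth (postnatal day 0), which is used as a model of bronchopulmonary dysplasia, and lungs were taken at day 14. Cells bound by CD45-coated beads (leukocytes) were discarded and those that then bound CD31-coated beads were collected as ECs. Each group held 4 bulk RNA-seq libraries, and the labels do not say how many pups went into each, so p-values measure the spread between these samples, which may be technical in part. Totals ran from 16098086 to 18300730 counts per library, of which members took 0.437% to 0.528% in normoxia and 0.484% to 0.526% in hyperoxia.

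The endothelial label was checked against its markers. All 12 pan-endothelial markers were detected, and their summed level was 17990 to 19000 CPM (counts scaled to a common library size with TMM factors) in normoxia and 18178 to 19145 CPM in hyperoxia. Single markers did differ, with log2 fold changes from -0.79 to 0.43. Of the 12, 5 were higher and 3 lower (41.7% and 25%, against 18.5% and 17.1% of all genes tested). RNA of other cells was present as well and differed between the groups. The 10 alveolar type 2 markers summed to 292 to 433 CPM in normoxia and 878 to 2630 CPM in hyperoxia, where all 10 were higher, and 8 of 10 alveolar type 1 markers were higher. Of the fibroblast markers 6 of 9 tested were higher (463 to 714 against 719 to 1430 CPM), and of the mural markers 7 of 8 (47.1 to 82.8 against 103 to 181 CPM). Of the other lists, 1 of 3 airway, 2 of 10 leukocyte and 2 of 6 striated muscle markers were higher, while 1 striated muscle marker and 4 of 5 erythroid markers were lower. The most abundant markers were Cdh5 (log2 fold change -0.03), Sftpc (3.40), Emp2 (0.23), Fn1 (1.06), Rgs5 (1.11), Tppp3 (0.50), Ptprc (-0.0034), Ryr2 (2.12) and Hbb-bs (-0.65), of which Cdh5, Emp2 and Ptprc did not pass. No gene of these lists was at 0 in all libraries. In bulk samples, fewer cells of a type and less RNA per cell cannot be told apart. Hyperoxia 3 had the lowest type 2 sum of its group, 878 CPM against 2266 to 2630 CPM.

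Under hyperoxia 21 of the 81 nuclear chain genes tested were higher, mostly by small amounts, and few were lower. In edgeR's quasi-likelihood test with Benjamini-Hochberg adjustment over all 15564 genes, these 21 members (25.9%) had an adjusted p under 0.05, against 18.5% of all genes tested. Only 3 members (3.70%) were lower, against 17.1% of all genes, and 57 did not pass. The fold changes were positive for 68 members and negative for 13. Their median log2 fold change was 0.15, while that of all genes was -0.0040. The lower and upper quartiles of the members were 0.045 and 0.24. Only Cox6b2 also passed an absolute log2 fold change of 1, and 5.62% of all genes did so upward. Cox6b2 and Cox7a1 passed the filter through the hyperoxia group, and among the 79 other members 20 were higher and 3 lower, with a median of 0.14.

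The 8 libraries overlapped for most members. In 13 of the 81 members (16.05%, against 17.8% of all genes) every hyperoxia library lay above every normoxia library, and in 3 members every hyperoxia library lay below (3.70%, against 17.6% of all genes). The median over members of log2 CPM minus the normoxia mean of each gene was 0.02, -0.14, 0.13 and -0.0016 in normoxia 1 to 4, and 0.18, 0.17, 0.07 and 0.19 in hyperoxia 1 to 4. Normoxia 2 was thus the lowest library and normoxia 3 lay above hyperoxia 3. The marker sums were lowest in hyperoxia 3 within the hyperoxia group for alveolar type 1, alveolar type 2, fibroblast and mural markers. Within normoxia, the type 2, fibroblast and mural sums were lowest in normoxia 4 (292, 463 and 47.1 CPM). The type 1, airway, leukocyte and erythroid sums were lowest in normoxia 2 (1505, 58.6, 82.4 and 116 CPM). Most of the type 1 sum came from Emp2 and Clic5, which did not pass. Without these genes, a split made after the values were seen, it was 99.2, 83.2, 82.7 and 78.9 CPM in normoxia 1 to 4. Whether any marker sum had a part in the values of normoxia 2 was not tested beyond the covariate fits given below.

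The count of higher members depended on single libraries. It was 14 without normoxia 1, 8 without normoxia 2, 32 without normoxia 3, 11 without normoxia 4, 10 without hyperoxia 1, 9 without hyperoxia 2, 21 without hyperoxia 3 and 8 without hyperoxia 4. Of the 21 higher members 7 were called in all 8 of these fits, namely Cox6b2, Cox6a1, Ndufa9, Ndufa10, Sdhb, Uqcrq and Atp5f1, and so were 2 of the 3 lower members, Cox7a2l and Atp5s. With the mean log2 level of the alveolar type 1 and type 2 markers as a covariate in edgeR, the only tool run with it, no member passed in either direction. Few genes of any kind did so, as 187 of the 15564 genes tested were higher (1.20%) and 38 lower. This score separates the groups, so the covariate also takes up the difference between them. At an unadjusted p under 0.05, 1 member was then higher and 4 were lower, and the median of the members was -0.075 against -0.011 for all genes. Of the 21 higher members 9 had the opposite sign in that fit (Atp5g3, Atp5h, Cox6c, Cox7c, Ndufs3, Ndufs5, Ndufa13, Ndufab1 and Ndufb4), and the medians of the 5 complexes lay between -0.087 and -0.029. With a covariate for the fibroblast and mural markers, 1 member was higher (Cox6b2) and 1 lower (Cox7a2l), and the median was 0.064. Of all genes, 763 were higher (4.90%) and 472 lower with that covariate. An offset with a trend on gene length left 11 higher and 5 lower members, and it moved the share of upward calls among all called genes from 51.9% to 36.1%. Members are short genes, with a median length of 1587 bases against 3974 for all genes tested.

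**Figure D1:**
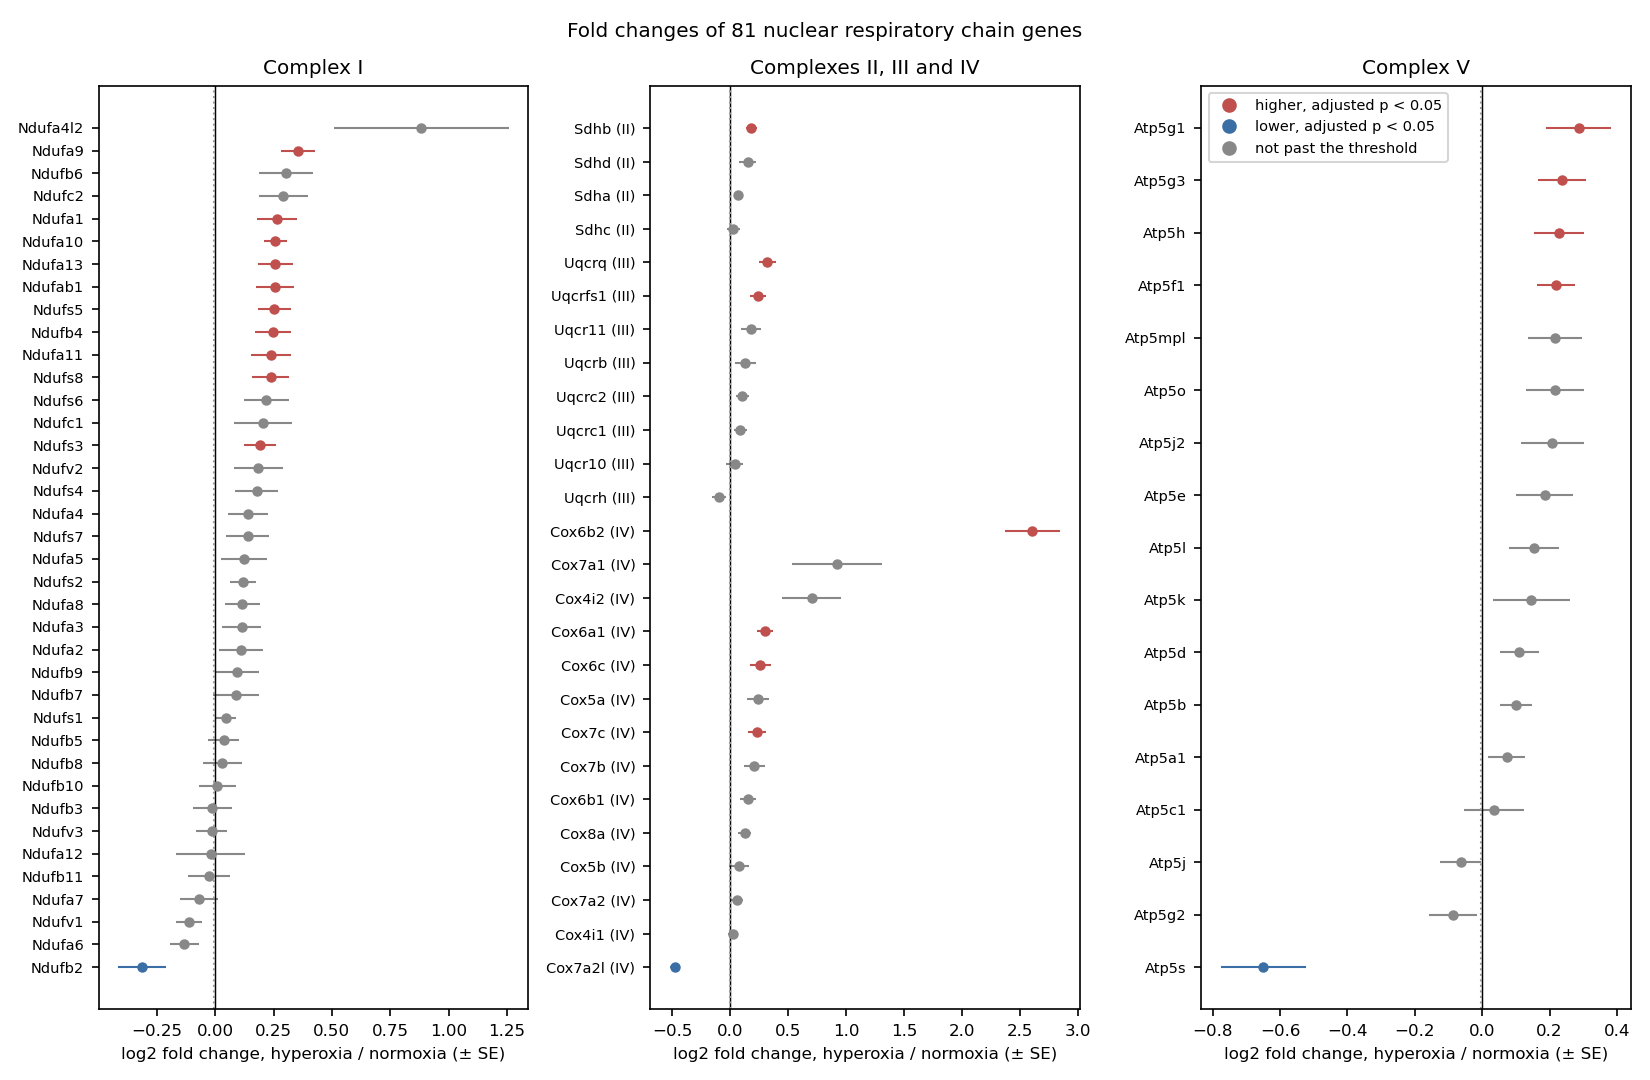
Log2 fold changes, hyperoxia over normoxia, of the 81 members that passed the filter, with standard errors, by complex. Red and blue points passed an adjusted p under 0.05 upward (21 members) and downward (3 members), gray points did not, the dotted line is the median of all genes tested, and the x axes differ between panels. Most points lie between 0 and 0.35, Cox6b2 stands far to the right at 2.61, and Ndufb2, Cox7a2l and Atp5s lie to the left.

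The sequence before the start of transcription is shown for 5 members that differed between the groups. They include the largest rise (Cox6b2), the most precisely measured fall (Cox7a2l) and the most abundant member that rose (Cox6a1). A complex I and an ATP synthase gene that rose (Ndufa11 and Atp5g3) are examples, neither the largest nor the most stable rises of their complexes. With single libraries left out in turn, Ndufa11 stayed called in 1 fit and Atp5g3 in 4. With the alveolar covariate the log2 fold change of Atp5g3 was -0.16. The windows come from RefSeq in build GRCm38.p6, hold up to 250 bases before the start, and are written 5′ to 3′ on the strand of the gene. They lie at chr7:4753095-4753344, minus strand (Cox6b2), chr17:83514334-83514583, minus strand (Cox7a2l), chr5:115348982-115349208, minus strand (Cox6a1), chr17:56717512-56717761, plus strand (Ndufa11) and chr2:73911327-73911576, minus strand (Atp5g3). Capitals mark exact matches, on either strand, to the motifs listed after the sequences.
Cox6b2: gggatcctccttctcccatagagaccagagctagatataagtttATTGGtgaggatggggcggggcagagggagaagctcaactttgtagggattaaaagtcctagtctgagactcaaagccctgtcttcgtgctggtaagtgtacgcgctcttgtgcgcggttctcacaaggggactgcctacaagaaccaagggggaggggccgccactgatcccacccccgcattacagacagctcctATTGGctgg
Cox7a2l: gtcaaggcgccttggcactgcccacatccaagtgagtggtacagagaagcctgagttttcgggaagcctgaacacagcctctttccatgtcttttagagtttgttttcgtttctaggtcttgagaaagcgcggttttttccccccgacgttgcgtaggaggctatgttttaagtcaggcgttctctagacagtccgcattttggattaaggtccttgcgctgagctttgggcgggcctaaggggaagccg
Cox6a1: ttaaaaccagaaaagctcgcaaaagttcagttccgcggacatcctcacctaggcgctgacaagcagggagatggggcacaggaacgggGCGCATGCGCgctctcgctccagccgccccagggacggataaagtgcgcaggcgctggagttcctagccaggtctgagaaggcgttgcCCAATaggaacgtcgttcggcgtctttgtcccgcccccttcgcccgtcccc
Ndufa11: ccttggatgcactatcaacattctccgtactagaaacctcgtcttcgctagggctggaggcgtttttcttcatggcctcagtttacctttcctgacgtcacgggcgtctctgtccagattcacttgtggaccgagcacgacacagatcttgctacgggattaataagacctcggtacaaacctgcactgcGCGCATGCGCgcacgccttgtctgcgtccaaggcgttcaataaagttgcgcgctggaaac
Atp5g3: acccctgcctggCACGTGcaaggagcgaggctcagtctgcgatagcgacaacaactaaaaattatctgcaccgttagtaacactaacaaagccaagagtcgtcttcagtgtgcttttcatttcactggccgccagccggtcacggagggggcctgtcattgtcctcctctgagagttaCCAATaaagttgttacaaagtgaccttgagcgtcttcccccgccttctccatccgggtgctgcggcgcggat

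Letters known as binding motifs of factors that control nuclear chain genes were searched on both strands in windows of 300 bases, 250 before and 50 after the start. A window was found for 69 of the 86 members. The NRF1 motif GCGCATGC was in 14.5% of the 69 members' windows and in 2.71% of all 32851 windows of the table, which also holds non-coding genes and several windows for some genes. The ETS motif CGGAAG, which GABPA binds, was in 36.2% against 16.9%. The YY1 motif AAGATGGC was in 13.0% against 2.75%, and 7 of these 9 members belonged to complex I. The hypoxia response element ACGTG was in 26.1% against 19.6%, and the CCAAT box in 43.5% against 37.4%. By outcome, NRF1 letters were in 15.8% of the 19 higher members and 15.6% of the 45 that did not pass, and ETS letters in 36.8% and 40.0%.

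In the printed windows, Cox6a1 and Ndufa11 each hold overlapping matches to the NRF1 motif on both strands, which begin 139 and 137 bases before the end of the printed sequence of Cox6a1 and 60 and 58 bases before that of Ndufa11. The sequence of Cox6a1 stops 23 bases short of its RefSeq start, at the start of the GENCODE model, and the other 4 run up to the RefSeq start. The NRF1 letters read almost alike on the other strand, so such a pair is 1 stretch. Only 3 of the 19 higher members with a window held NRF1 letters, Cox6a1 and Ndufa11 among them, so the printed windows are not typical in this. Cox6b2 holds 2 CCAAT boxes on the opposite strand, 206 and 9 bases before its start. Atp5g3 holds a CCAAT box 72 bases before its start. Its matches to the hypoxia response element, on both strands at 238 and 237 bases before the start, overlap. They are 1 stretch, CACGTG, which reads the same on either strand. The Cox7a2l window holds none of these letters, which says nothing about the factors that act there.

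Complex I oxidizes NADH. Of its 38 members, 10 rose (26.3%, against 18.5% of all genes tested) and 1 fell (2.63%, against 17.1%), with a median log2 fold change of 0.13. The 7 core subunits, which carry the flavin and the iron-sulfur clusters, had a median of 0.14. Of these, Ndufs8 rose (log2 fold change 0.24, adjusted p = 0.036, edgeR) and so did Ndufs3 (0.19, adjusted p = 0.046, edgeR). Of the 29 other subunits, 8 rose, namely Ndufa9, Ndufa1, Ndufa10, Ndufa13, Ndufab1, Ndufs5, Ndufb4 and Ndufa11.

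Ndufa9, a subunit at the junction of the membrane and matrix arms, had the largest rise past the test in complex I. Its FPKM (fragments per kilobase, a level that can be compared between genes) was 17.8, 17.0, 21.2 and 18.9 in normoxia 1 to 4 and 24.0, 24.1, 22.2 and 25.5 in hyperoxia 1 to 4. The groups did not overlap, although normoxia 3 came close to hyperoxia 3, and the log2 value rose by 0.35 (SE 0.073, adjusted p = 3.5e-03, edgeR). Ndufa10, another accessory subunit, was tighter. It lay at 12.8, 12.8, 13.8 and 14.2 FPKM in normoxia and 16.2, 15.8, 15.9 and 16.5 FPKM in hyperoxia. All hyperoxia libraries were above all normoxia libraries, and the gene rose by 0.26 on the log2 scale (SE 0.051, adjusted p = 2.6e-03, edgeR). Ndufa1, a small membrane subunit encoded on the X chromosome, was at 49.9, 43.1, 50.01 and 39.8 FPKM in normoxia and 58.2, 55.7, 53.5 and 52.4 FPKM in hyperoxia. This again left a gap between the groups, with a log2 fold change of 0.26 (adjusted p = 0.035, edgeR).

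Ndufb2, a membrane arm subunit, was the only complex I member that fell in edgeR. It was listed at 1.95, 1.70, 1.76 and 2.17 FPKM in normoxia and at 1.57, 1.52, 1.51 and 1.53 FPKM in hyperoxia, all below the normoxia libraries. On the log2 scale it changed by -0.31 (SE 0.10, adjusted p = 0.036, edgeR). The value stayed negative in all 23 alternatives, but in 13 of them the call was lost. These include the replicate block (adjusted p = 0.073, edgeR) and the removal of any single library other than normoxia 2 or normoxia 3 (adjusted p = 0.057 to 0.11, edgeR). The deposited gene model of Ndufb2 is long, 5628 bases, and 2.59% of its exon bases overlap exons of Braf on the opposite strand. The use of strand in counting is not given in the sources used here, so reads from that stretch cannot be assigned. The most abundant members of the complex, Ndufa8, Ndufb11 and Ndufa2, averaged 72.9, 63.6 and 61.3 FPKM over all libraries and did not pass, with log2 fold changes of 0.12, -0.03 and 0.11.

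Complex II oxidizes succinate and is also an enzyme of the citric acid cycle. All 4 members had positive fold changes, with a median of 0.11, and 1 passed upward (25%, against 18.5% of all genes tested). Sdhb, the iron-sulfur subunit, was at 26.3, 25.4, 29.0 and 27.9 FPKM in normoxia and 30.8, 31.5, 31.2 and 30.3 FPKM in hyperoxia. The groups did not overlap, and the gene rose by 0.18 on the log2 scale (SE 0.050, adjusted p = 0.015, edgeR). With the offset for gene length the adjusted p of Sdhb was 0.16. Sdha, the flavin subunit, had a log2 fold change of 0.07 (adjusted p = 0.18, edgeR), Sdhd 0.15 (adjusted p = 0.13, edgeR) and Sdhc 0.03 (adjusted p = 0.72, edgeR). Sdhc and Sdhd are the membrane anchors.

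Complex III passes electrons from ubiquinol to cytochrome c. Of 8 members, 2 rose (25%, against 18.5% of all genes tested) and none fell (against 17.1%), in edgeR and DESeq2 alike. In edgeR 2 members had an unadjusted p under 0.05, both upward, and the median was 0.12. Uqcrq, a small membrane subunit, was at 23.8, 21.9, 27.4 and 24.3 FPKM in normoxia and 29.1, 31.3, 28.7 and 32.9 FPKM in hyperoxia, without overlap. Its log2 fold change was 0.32 (SE 0.073, adjusted p = 5.6e-03, edgeR). Uqcrfs1, the Rieske iron-sulfur protein, was at 38.2, 36.3, 43.7 and 40.3 FPKM in normoxia and 50.6, 44.1, 43.8 and 49.2 FPKM in hyperoxia. Normoxia 3 and hyperoxia 3 nearly coincided, and the log2 fold change was 0.24 (adjusted p = 0.023, edgeR). The most abundant members by FPKM were Uqcr10, Uqcrh and Uqcr11, which did not pass, with log2 fold changes of 0.04, -0.10 and 0.18. Cyc1, the cytochrome c1 subunit, falls outside the symbol rule and was looked up after values were seen, and its log2 fold change was 0.19 (adjusted p = 0.050, edgeR, just short of the threshold).

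Complex IV reduces oxygen to water and is the complex with the most isoforms. Of its 18 members, 4 rose, 1 fell, 9 did not pass and 4 were filtered out. The rises were 28.6% of the 14 tested, against 18.5% of all genes tested, and the fall 7.14%, against 17.1%. The median of the 14 tested was 0.22, and it was 0.12 with the fibroblast and mural covariate and -0.087 with the alveolar covariate. Without Cox6b2 and Cox7a1, which passed the filter through hyperoxia, 3 of 12 rose, 1 fell and the median was 0.18. Cox6a1, the common form of subunit VIa and the most abundant member of all by FPKM, was at 197, 171, 222 and 201 FPKM in normoxia and at 250, 248, 232 and 246 FPKM in hyperoxia. The groups stayed apart, and on the log2 scale the gene rose by 0.30 (SE 0.070, adjusted p = 6.5e-03, edgeR). Cox6c and Cox7c, both small membrane subunits, rose by 0.26 (adjusted p = 0.047, edgeR) and 0.23 (adjusted p = 0.043, edgeR) with groups that overlapped, and Cox7b, another, did not pass (0.21, adjusted p = 0.098, edgeR). Of the exon bases of Cox6c, 7.01% overlap exons of Vps13b on the opposite strand. Cox8a, the next most abundant at a mean of 193 FPKM, and Cox4i1, at 107 FPKM, did not pass, with log2 fold changes of 0.13 and 0.03.

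Cox6b2, known as the testis form of subunit VIb, had the largest change of all members. Its raw counts were 13, 10, 9 and 10 in normoxia and 72, 72, 47 and 71 in hyperoxia. This is 0.715, 0.506, 0.451 and 0.495 FPKM against 3.68, 3.67, 2.42 and 3.53 FPKM. Every hyperoxia library was above every normoxia library, with hyperoxia 3 the lowest of its group, and the log2 fold change was 2.61 (SE 0.24, adjusted p = 1.7e-05, edgeR). The gene lies at chr7:4751792-4753094, minus strand (GRCm38), and no exon of another gene overlaps it in GENCODE M21. The low normoxia counts limit the precision of the fold, and Cox6b2 passed the filter through hyperoxia, as only 2 of 4 normoxia libraries reached the filter level. The partner Cox6b1, the common form, was at 75.3 to 93.1 FPKM in normoxia and 86.2 to 96.1 FPKM in hyperoxia (log2 fold change 0.15, adjusted p = 0.098, edgeR). Cox6b2 therefore made up 0.665% ± 0.171 of the summed FPKM of both under normoxia, against 3.51% ± 0.651 under hyperoxia (SD, n = 4 per group). The log2 fold change was 1.49 (adjusted p = 0.23, edgeR) with the alveolar covariate and 1.89 (adjusted p = 8.7e-03, edgeR) with the fibroblast and mural covariate.

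Cox7a2l was the clearest fall. It encodes a protein related to the VIIa subunits that joins complexes III and IV into supercomplexes and is not a fixed part of complex IV, and C57BL/6 mice are known to carry a shortened form of it. It was at 133, 126, 137 and 132 FPKM in normoxia and at 99.6, 91.7, 94.3 and 95.2 FPKM in hyperoxia. The groups were well apart and each was tight, and the log2 change was -0.48 (SE 0.044, adjusted p = 1.8e-05, edgeR). The gene lies at chr17:83501919-83514333, minus strand (GRCm38), and no exon of another gene overlaps it in GENCODE M21. The log2 fold change was -0.54 (adjusted p = 0.095, edgeR) with the alveolar covariate and -0.47 (adjusted p = 0.011, edgeR) with the fibroblast and mural covariate. Neither gene of the VIIa subunit itself passed the test. Cox7a2, the common form, was at 51.6 to 56.6 FPKM and 54.3 to 57.2 FPKM (log2 fold change 0.06, adjusted p = 0.36, edgeR).

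**Figure D2:**
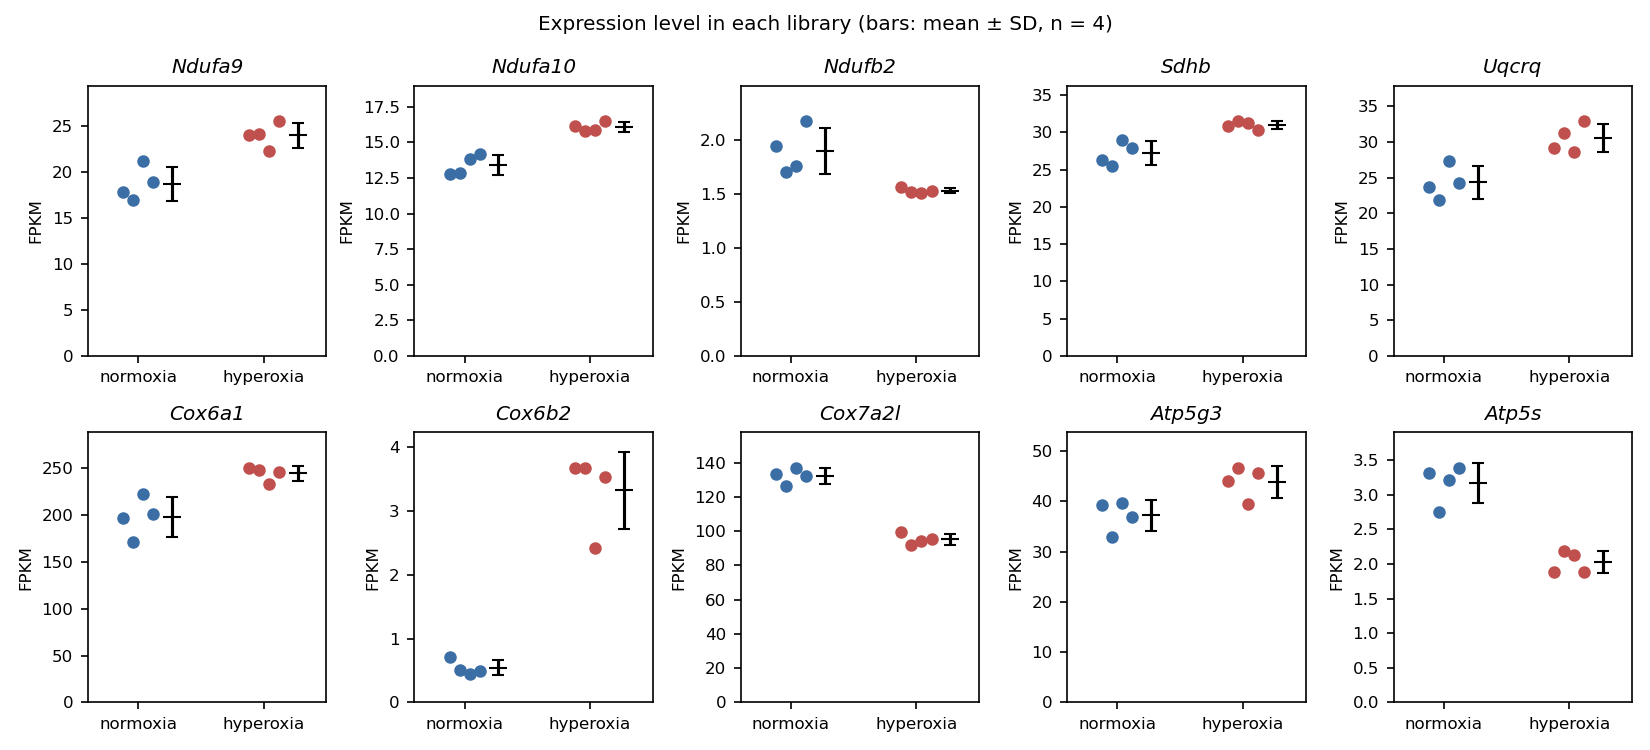
FPKM of 10 members in each of the 4 normoxia (blue) and 4 hyperoxia (red) libraries, with the mean ± SD beside them. The y axes start at 0 and differ between panels. Cox6b2 lies below 1 FPKM in normoxia and above 2 FPKM in hyperoxia, Cox7a2l falls from 126 to 137 FPKM to 91.7 to 99.6 FPKM, and the small rises of Ndufa9, Ndufa10, Sdhb, Uqcrq and Cox6a1 leave the groups just apart.

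The other tissue-type isoforms were low and less clear. Cox4i2, the form of subunit IV known from lung and from low oxygen, was at 3.94, 2.14, 2.05 and 2.58 FPKM in normoxia and 4.02, 5.38, 3.11 and 4.89 FPKM in hyperoxia. Normoxia 1 lay within the range of hyperoxia, and the log2 fold change of 0.70 (SE 0.25) just missed the threshold (adjusted p = 0.052, edgeR). It passed in DESeq2 (adjusted p = 0.041) and was -0.54 (adjusted p = 0.78, edgeR) with the alveolar covariate and -0.22 (adjusted p = 0.76, edgeR) with the fibroblast and mural covariate. Cox7a1, the heart and muscle form of subunit VIIa, had raw counts of 7, 14, 4 and 17 in normoxia and 16, 18, 21 and 26 in hyperoxia. Normoxia 4 was above hyperoxia 1, and the log2 fold change was 0.93 (SE 0.39, adjusted p = 0.087, edgeR). Striated muscle markers summed to 21.1 to 27.5 CPM in normoxia and 37.6 to 51.1 CPM in hyperoxia, and their part in the values of the muscle isoforms was not tested.

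The isoforms that were filtered out are those of heart, muscle and testis. Cox6a2, the heart and muscle form of subunit VIa, had raw counts of 0, 4, 3 and 0 in normoxia and 11, 12, 4 and 10 in hyperoxia, and Cox8b, the corresponding form of subunit VIII, had 4, 5, 4 and 11 against 0, 5, 5 and 1. The counts of both are too low for a comparison at this depth. Cox7b2 and Cox8c, known from testis, had no count in any library, and neither had a second gene model named Atp5o, which overlaps the first at one end.

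**Figure D3:**
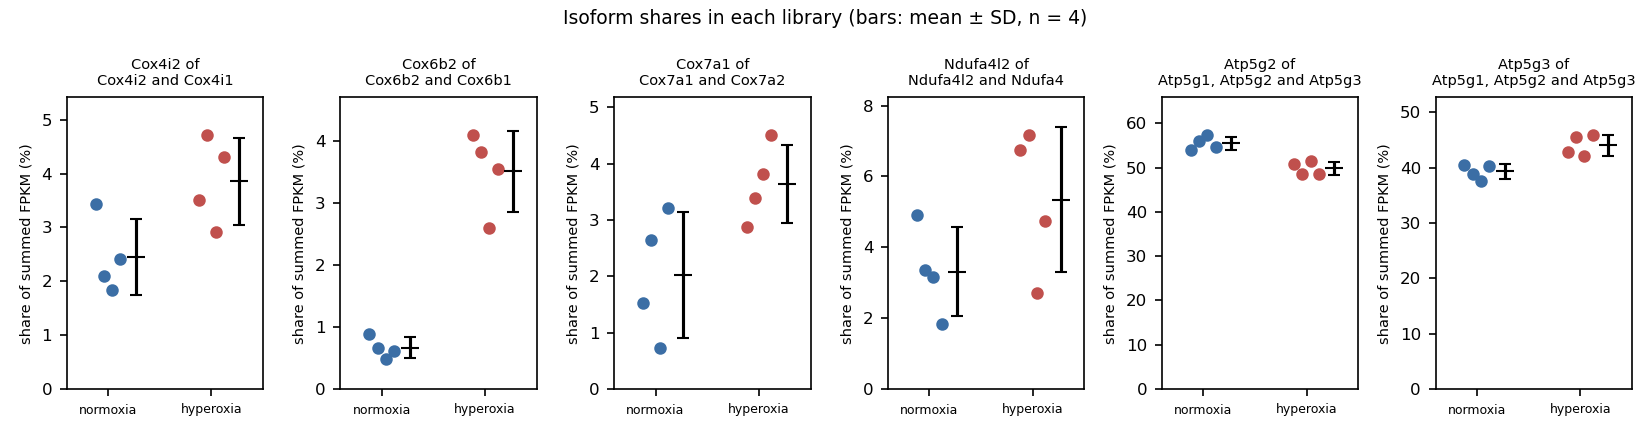
Share of 1 isoform in the summed FPKM of its family, in percent, in each normoxia (blue) and hyperoxia (red) library, with the mean ± SD. The shares of Cox6b2 and Atp5g3 are higher and that of Atp5g2 lower in every hyperoxia library than in every normoxia library, while Cox4i2, Cox7a1 and Ndufa4l2 overlap.

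Ndufa4 and Ndufa4l2 have complex I symbols, but Ndufa4 is now known as a subunit of complex IV, and its paralog Ndufa4l2, known from low oxygen and from pericytes, is not an established subunit. Ndufa4 was at 38.5 to 52.8 FPKM in normoxia and 46.8 to 52.9 FPKM in hyperoxia (log2 fold change 0.14, adjusted p = 0.23, edgeR). Ndufa4l2 was at 2.39, 1.33, 1.73 and 0.852 FPKM in normoxia and 3.82, 3.87, 1.30 and 2.62 FPKM in hyperoxia. Hyperoxia 3 fell within the normoxia range, and the log2 fold change was 0.88 (adjusted p = 0.092, edgeR). It was -2.11 (adjusted p = 0.20, unadjusted p = 0.011, edgeR) with the alveolar covariate and -0.71 (adjusted p = 0.41, edgeR) with the fibroblast and mural covariate, both of the opposite sign. With Ndufa4 counted in complex IV, and without Ndufa4l2, Cox7a2l and Atp5s, complex I had 10 of 36 members higher and complex IV 4 of 14 higher and none lower. Over the 78 members left without those 3 genes, 21 rose and 1 fell, and the median stayed at 0.15.

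Among 17 tested members of complex V, the ATP synthase, 4 rose (23.5%, against 18.5% of all genes tested) and 1 fell (5.88%, against 17.1%). The median was 0.15. The 5 subunits of the catalytic F1 head did not pass in edgeR, DESeq2 or limma-voom, with a median of 0.10. None had an unadjusted p under 0.05 in edgeR. In DESeq2 and limma-voom the unadjusted p was 0.026 and 0.047 for Atp5b, and 0.044 and 0.045 for Atp5e. Atp5b and Atp5a1 are the most abundant of the complex, at means of 134 and 130 FPKM, followed by Atp5d at 58.3 FPKM, with log2 fold changes of 0.10, 0.07 and 0.11. The members that rose belong to the stalk (Atp5f1, log2 fold change 0.22, and Atp5h, 0.23) and to the membrane ring (Atp5g1, 0.29, and Atp5g3, 0.24), with adjusted p-values of 0.012, 0.034, 0.039 and 0.023 (edgeR). Of the exon bases of Atp5f1, 8.21% overlap exons of Wdr77 on the opposite strand.

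The 3 ring genes encode the same mature subunit c with different import sequences. Atp5g3 was at 39.3, 32.9, 39.7 and 36.9 FPKM in normoxia and 43.9, 46.7, 39.4 and 45.6 FPKM in hyperoxia. Atp5g2 was at 52.4, 47.4, 60.5 and 50.1 FPKM against 52.3, 49.9, 48.1 and 48.4 FPKM, and Atp5g1, the least abundant, at 5.57, 4.23, 5.45 and 4.47 FPKM against 6.52, 6.01, 6.04 and 5.53 FPKM. Atp5g2 was the only ring gene with a negative log2 fold change, -0.09 (adjusted p = 0.37, edgeR). Its share of the summed FPKM went from 55.5% ± 1.48 to 49.9% ± 1.47 with hyperoxia (SD, n = 4 per group), while the share of Atp5g3 was 39.3% ± 1.35 and 44.1% ± 1.88. Neither share overlapped between the groups.

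In all, 9 isoform shares were tested between the groups by permutation (exact, two-sided), for which 0.029 is the smallest p that 4 against 4 libraries allow. The shares of Cox6b2, Atp5g2 and Atp5g3 reached it. After adjustment over the 9 shares (Benjamini-Hochberg) their adjusted p in the permutation tests was 0.073, but at least 6 shares would have had to reach the smallest p for any to pass, and the 9 include those of Cox6a2 and Cox8b with their low counts, so these adjusted values say little about any share. The 3 ring gene shares sum to a constant and are not independent.

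Atp5s, now known as a factor related to an assembly protein rather than a subunit, was the third member that fell. It was at 3.32, 2.75, 3.22 and 3.39 FPKM in normoxia and 1.89, 2.19, 2.13 and 1.89 FPKM in hyperoxia. Here too the groups were apart, and the log2 change was -0.65 (SE 0.13, adjusted p = 2.4e-03, edgeR).

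Nuclear members were set beside the subunits that the mtDNA encodes, which belong to the same complexes. Of 12 tested, 8 were higher and none was lower in edgeR, DESeq2 and limma-voom alike. These 8 are 66.7%, against 18.5% of all genes in edgeR, where 17.1% of all genes were lower. In edgeR 9 had an unadjusted p under 0.05, and all 12 fold changes were positive. Their median log2 fold change was 0.47, against 0.15 for the nuclear members. The largest rises were in mt-Nd3 (2.39, adjusted p = 9.6e-07, edgeR) and mt-Nd5 (0.75, adjusted p = 1.0e-05, edgeR). The summed FPKM of the nuclear members was 2964, 2623, 3181 and 2904 in normoxia and 3238, 3176, 3010 and 3237 in hyperoxia. That of the mtDNA-encoded subunits was 6775, 6242, 7467 and 7229 in normoxia and 10430, 10038, 9316 and 10818 in hyperoxia. The nuclear sum thus overlapped between the groups and the mtDNA sum did not. Dividing the nuclear by the mtDNA sum gave 0.421 ± 0.0149 for the normoxia libraries and 0.312 ± 0.0102 for hyperoxia (SD, 4 libraries a group), and these ratios did not overlap. With the alveolar covariate 1 of the 12 mtDNA-encoded subunits was called higher and the median was 0.23.

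**Figure D4:**
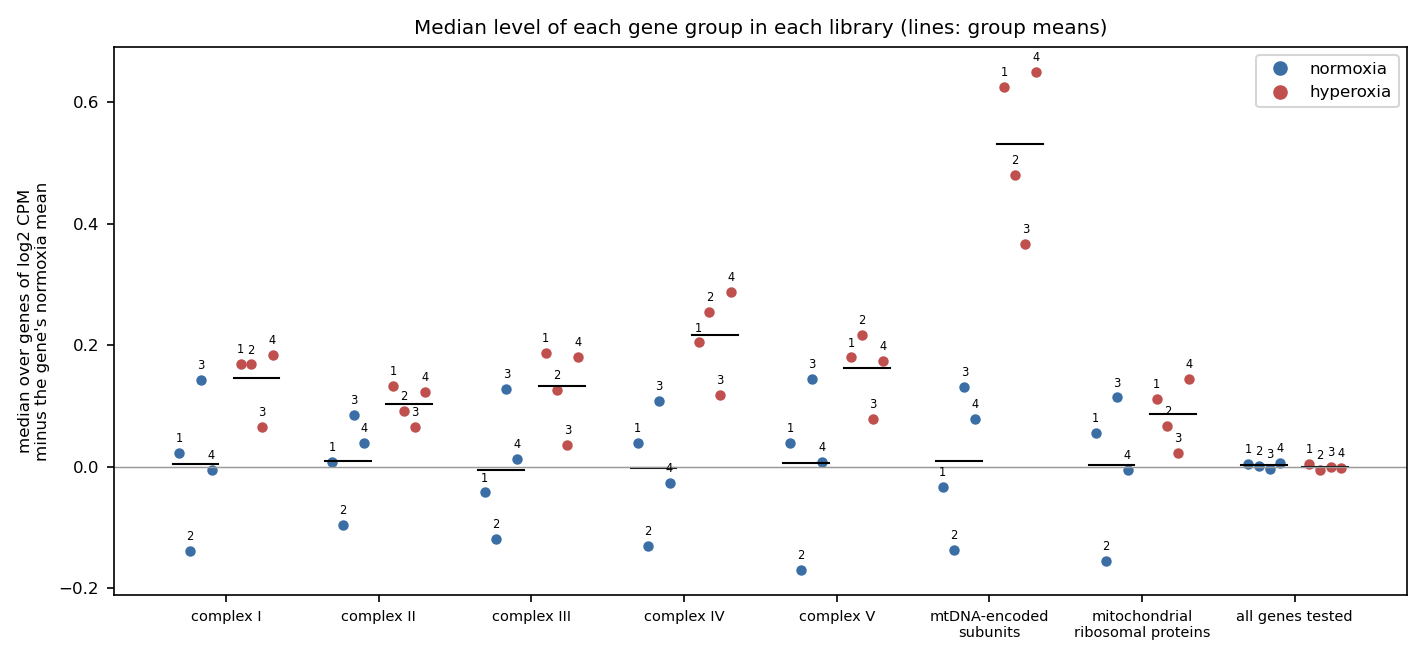
Median over the genes of each group of log2 CPM minus the normoxia mean of each gene, in each normoxia (blue) and hyperoxia (red) library, numbered by replicate. Lines are group means. Complex IV includes Cox6b2 and Cox7a1, which passed the filter through the hyperoxia group. Hyperoxia points lie above 0 for all 5 complexes, but normoxia 3 overlaps them in complexes I, II, III and V, while the mtDNA-encoded subunits lie between 0.37 and 0.65 in hyperoxia and at most at 0.13 in normoxia.

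By library and complex, hyperoxia 3 (0.065) lay below normoxia 3 (0.14) in complex I. In complex IV the 2 groups only just failed to overlap, with 0.11 in normoxia 3 and 0.12 in hyperoxia 3. That median includes Cox6b2 and Cox7a1, which passed the filter through the hyperoxia group, and values per library without them were not computed. Normoxia 2 was the lowest library in each of the 5 complexes, between -0.10 and -0.17, and also for the mtDNA-encoded subunits (-0.14) and the mitochondrial ribosomal proteins (-0.15). Hyperoxia 3 was the lowest of its group in each complex, and its alveolar type 2 sum was the lowest too. Whether these markers had a part in the medians was not tested beyond the covariate fits given with the counts.

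Few genes that build the chain but are not subunits were called. Of all genes tested, 18.5% were higher and 17.1% lower in edgeR. None of 15 complex I assembly factors, 4 of complex II, 6 of complex III and 4 of the ATP synthase list was called by edgeR, DESeq2 or limma-voom, and 1, 0, 1 and 0 of them had an unadjusted p under 0.05 in edgeR. Among 19 complex IV assembly factors 3 rose (15.8%, near the share of all genes) and 1 fell (5.26%) in edgeR and in limma-voom. In DESeq2 4 rose and none fell (6 had an unadjusted p under 0.05 there), and the median in edgeR was 0.03. Cox10, which makes heme O, rose by 0.36 (adjusted p = 2.8e-03, edgeR), Coa7 by 0.44 (adjusted p = 0.015, edgeR) and Cox19 by 0.25 (adjusted p = 0.027, edgeR), while Coa5 fell by 0.13 on the log2 scale (adjusted p = 0.045, edgeR), a call that was lost in 15 of 23 alternatives, DESeq2 among them (adjusted p = 0.093). The median of the electron carrier list was -0.0033, and of its 14 genes tested 2 were higher (14.3%, near the share of all genes) and 1 lower (7.14%). Cycs, which is cytochrome c, rose by 0.35 (adjusted p = 2.9e-03, edgeR) and Coq10b, a coenzyme Q binding protein, by 0.34 (adjusted p = 2.5e-03, edgeR). Coq8a, a kinase-like protein of coenzyme Q synthesis, had a log2 fold change of -1.10 (adjusted p = 9.7e-04, edgeR).

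Regulators of mitochondrial biogenesis, mostly transcription factors and the enzymes of mtDNA upkeep, had negative fold changes in all but 1 case. Of 16 tested, 7 were lower (43.8%, against 17.1% of all genes) and none was higher in edgeR, DESeq2 or limma-voom, while 10 had an unadjusted p under 0.05 in edgeR. Only Pprc1 had a positive fold change, and the median was -0.15. Ppargc1a, the coactivator PGC-1α, fell from 3.43 ± 0.492 to 1.70 ± 0.135 CPM (SD, n = 4 each), with a log2 fold change of -1.01 (adjusted p = 1.3e-03, edgeR). Polg2 and Twnk, which copy mtDNA, had -0.67 and -0.65, and Tfb2m, a factor of mtDNA transcription, had -0.40. Gabpa and Yy1, whose motifs were searched in the promoters, had -0.35 and -0.34, and Polg had -0.14. Nrf1 did not pass (-0.13, adjusted p = 0.11, edgeR), nor did Tfam (-0.15, adjusted p = 0.14, edgeR), and Gabpb1 (-0.14, adjusted p = 0.050) and Tfb1m (-0.63, adjusted p = 0.056) were just short of the threshold. The rest, Gabpb2, Esrra, Esrrg, Polrmt and Pprc1, ran from -0.15 to 0.07. With either marker covariate none of the 16 passed, while the median was -0.24 and -0.27.

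Other mitochondrial genes were set beside the members at the level of RNA alone, which does not give mitochondrial content. Of 16 genes that code for proteins often used to gauge mitochondrial mass, 6 were higher (37.5%, against 18.5% of all genes). Of the same genes 1 was lower (6.25%, against 17.1%), and the median was 0.13. With the alveolar covariate none of the 16 passed, and the median was 0.011. The examples with the largest changes were Timm23 (0.44, adjusted p = 0.015, edgeR), an import channel, and Slc25a4 (0.28, adjusted p = 4.6e-03, edgeR), the ADP/ATP carrier, which rose, and Hspd1 (-0.19, adjusted p = 0.031, edgeR), a chaperone, which fell. Of 77 mitochondrial ribosomal protein genes 14 were higher (18.2%, near the background of 18.5%) and 3 lower, with a median of 0.06. Mrps18b (0.70, adjusted p = 6.4e-03) and Mrpl46 (0.49, adjusted p = 0.011) had the largest rises, and Mrpl24 (-0.52, adjusted p = 1.4e-04) and Mrpl23 (-0.35, adjusted p = 0.015) the largest falls in edgeR.

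**Figure D5:**
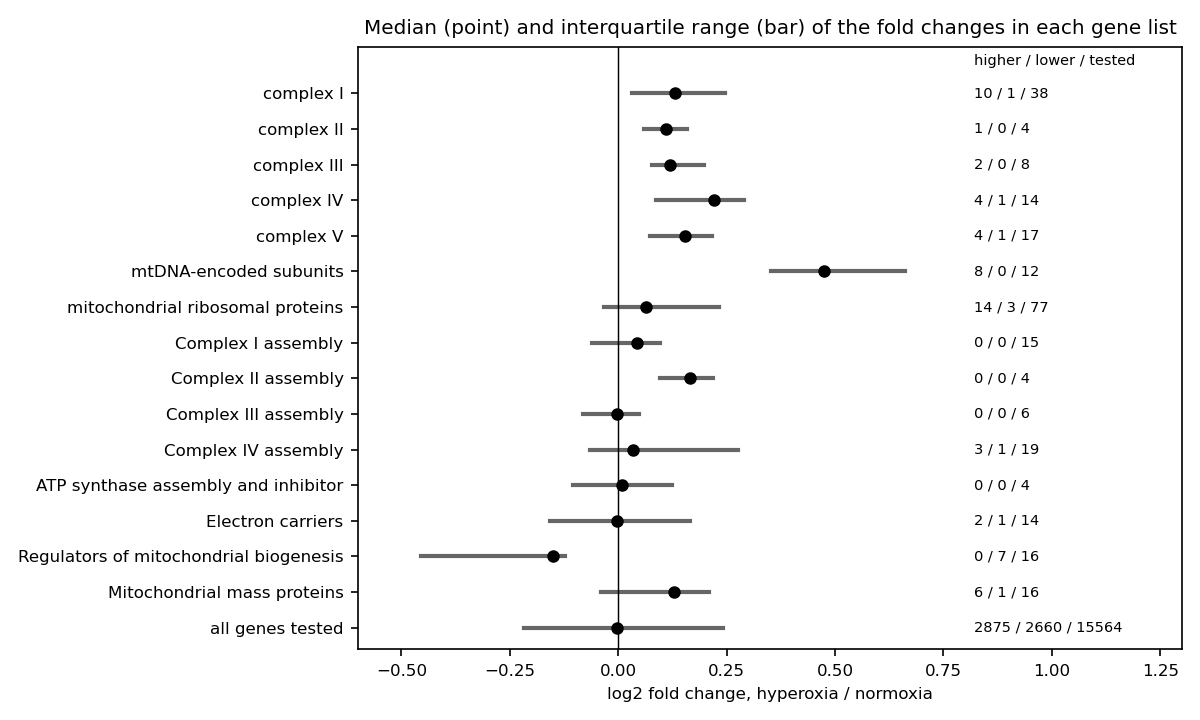
Median (point) and interquartile range (bar) of the log2 fold changes, hyperoxia over normoxia, of the members by complex, of related mitochondrial gene lists and of all genes tested, with the numbers higher, lower and tested at an adjusted p under 0.05. The 5 complexes lie at 0.11 to 0.22, the mtDNA-encoded subunits at 0.47 and the regulators of mitochondrial biogenesis at -0.15, and all genes lie at about 0. Without Cox6b2 and Cox7a1, which passed the filter through hyperoxia, the median of complex IV was 0.18.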

How the data were processed

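RNA-seq counts of 8 lung EC libraries, 4 from normoxia and 4 from hyperoxia, were grouped as titled in the labels. Counts per gene, as whole numbers, and FPKM values were deposited in separate tables, and the authors made the FPKM from the same counts and gene lengths. The submitters' processing notes name HISAT2 2.0.5, featureCounts 1.5.0-p3 and mm10, and the treatment of strand and of multiply mapped reads is not given in the sources used here.

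All 54532 genes entered 1 fit: edgeR 4.0.16 in R 4.3.3, TMM, filterByExpr at default settings (at least 0.567 CPM in 4 libraries, with a minimum total), group as the only term, and the Benjamini-Hochberg adjustment over 15564 genes. The study used DESeq2, run here as an alternative (1.42.0), as was limma 3.58.1. Standard errors follow from the F statistic. Levels between genes are compared in FPKM. The members and lists were chosen with earlier results of these data known, so no set test was run. Named were isoform families, the 3 most abundant members and up to 3 largest rises and falls past the threshold in each complex, all Sdh genes, up to 2 largest rises and falls in each list, all regulators of biogenesis and the most abundant marker of each marker list. The values of the remaining higher members, Cox19, Cyc1, the filtered genes and the type 1 sum without Emp2 and Clic5 were added after they were seen. The scripts were tested on simulated counts. There, 7 of 86 genes with a log2 change of 0.3 and 83 of 114 with a change of 1 were recovered. A change as small as those of most members can thus go uncalled. Of the 86 members, 80 had the same coordinates and length in GENCODE M21. The 12 pseudogene rows with member-like symbols held 774 counts against 699131 in the members. Alternatives were other normalizations, filters and tools, the FPKM table, a replicate block, protein-coding genes alone, marker scores as covariates, a gene length trend and the removal of each library. Libraries of a group differed by more than counting noise (chi-square per degree of freedom 5.08 to 17.9), so each was kept as a replicate.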

Additional observations from a re-analysis of the deposited data

Results flagged for a closer look

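Some values stood apart from the other libraries of their group by Dixon's gap test at its 95% critical value, which chance meets in about 1 of 20 groups. Of 100 groups tested, 6 met it. Hyperoxia 3 was lowest for Cox6b2, at 2.69 CPM, where the rest of hyperoxia had 3.94 to 4.11 CPM, and for Sdha, at 162 CPM, where the rest had 169 CPM each. It was also lowest for the median of all members (0.070 against 0.17 to 0.19) and for the median of complex I (0.065 against 0.17 to 0.18), both in log2 CPM relative to the normoxia mean of each gene. Normoxia 2 was lowest for Sdhd, with 42.3 CPM against 50.9 to 52.3 CPM, and for Uqcr10, with 31.7 CPM against 37.6 to 38.6 CPM. Without hyperoxia 3, 21 members were higher, of which 16 were called with it as well, and without normoxia 2, 8 members were higher, all of them called with it too.

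The marker sums of the same libraries are given beside the medians. Hyperoxia 3 had 878 CPM of alveolar type 2 markers, 719 CPM of fibroblast markers and 103 CPM of mural markers, the lowest of its group in each. Normoxia 2 was not the lowest of its group in these lists, with 328, 530 and 55.1 CPM against 292, 463 and 47.1 CPM in normoxia 4. It was the lowest of normoxia for the alveolar type 1 (1505 CPM), airway (58.6 CPM), leukocyte (82.4 CPM) and erythroid markers (116 CPM). For the pan-endothelial markers (18177 CPM) it was not the lowest, and for the striated muscle markers (27.5 CPM) it was the highest of normoxia. Cox6b2 was the only one of the flagged genes that passed the test between groups. A part of these markers in the flagged values was not tested.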

How the results depend on the processing

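Every result was recomputed under the alternatives, and the cause of a change was not tested unless stated. Without 1 library at a time, higher members ran from 8 to 32, lower members from 2 to 4, members past a log2 fold change of 1 from 1 to 2, and the median of all members from 0.09 to 0.22. Higher members numbered 12 with upper quartile normalization, 12 with library totals alone, 11 with the gene length trend (5 lower), 24 with DESeq2 (3 lower, and all 21 reported genes among them) and 23 with limma-voom. With normoxia 2 and hyperoxia 3 left out together, an alternative chosen after seeing the data, 15 members were higher, 13 of them shared, and 2 passed the fold. With every gene of at least 1 count tested, 2 members passed the fold. With the replicate block 14 members were higher, all shared, and 2 lower. The labels share only replicate numbers: the correlations of deviations between same-numbered samples were 0.12, 0.04, -0.13 and -0.14, and 1 of 8 samples correlated best with its own number. With the alveolar covariate 0 members were higher, 0 lower and 0 past the fold, over all genes 187 were higher and 38 lower, and the medians were -0.075 for all members, -0.079 for complex I, -0.031 for complex II, -0.029 for complex III, -0.087 for complex IV and -0.079 for complex V. There, Atp5g3 was -0.16, Cox6c -0.096, Atp5h -0.079, Polg 0.077, Slc25a4 -0.0082, Tppp3 -0.26 and Mrps18b -0.12, each the opposite sign. With the fibroblast and mural covariate 1 member was higher and 1 lower, 763 and 472 of all genes were higher and lower, and the median of complex IV was 0.12. These scores separate the groups, so a covariate also takes up the difference between them. Members with low counts, such as Cox6b2 and Cox7a1, are limited by depth.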
